A study of Mus musculus with 16 samples.

Results

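PDGF+p53-/- brain tumours of mice were compared with normal mouse brain on 8 of the 16 expression arrays of the series, 4 of tumour and 4 of normal tissue. Members were chosen by their titles, and all 19936 genes with a probe set of a single gene symbol were examined. The tumours were induced in mice with floxed p53 alleles by a retrovirus that carries PDGF-B and Cre recombinase on a single transcript. Rbpj was wild type in these tumours, and in normal brain Pdgfb, Trp53 and Rbpj were all wild type. Tissue was taken once animals showed symptoms, and the tumours, marked by a Cre-dependent GFP reporter, were cut out by micro-dissection, so a sample can hold host brain cells beside tumour cells. Strain, sex, age, the brain region of the normal tissue and the cell type that took up the virus are not stated in the labels. The labels number the arrays without tying them to animals, and the p-values therefore reflect only how these samples spread, which may in part be technical. The other arrays hold 4 PDGF+p53-/-RBPjk-/- tumours, made with the same virus in mice whose RBPjk was floxed as well, and 4 p53-/-RBPjk-/- tumours, made without virus by an Hes5::CreERT2 transgene. They enter only the estimate of the spread and a short direct comparison at the end.

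PDGF-B is a secreted growth factor that binds the receptor tyrosine kinases PDGFRA and PDGFRB and drives the RAS-ERK and PI3K pathways. In the developing and adult brain PDGFRA marks oligodendrocyte precursors, the dividing cells from which myelinating oligodendrocytes arise, and PDGF keeps them dividing and immature. The transcription factor p53 halts the cell cycle or triggers cell death after DNA damage, and its loss together with PDGF signalling is frequent in human glioblastoma.

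The deposited values are log2 levels, so a difference of 1 is a doubling. Arrays of normal brain correlated with each other at r between 0.973 and 0.98 over genes, and tumour arrays at 0.969 to 0.978. On the first principal component of the 8 arrays, which held 70.2% of the variance, normal arrays lay between -49.6 and -45.6. Tumour arrays 1, 2 and 4 lay at 58.9, 52.8 and 57.7, and tumour array 3 stood nearer to normal brain at 21.8. Normal array 4 stood apart in genes of cerebellar neurons, as described below. By Xist and the Y-linked genes, 2 of 4 normal and 1 of 4 tumour arrays looked female. Running medians over 15 neighbouring genes passed 1 log2 unit in 0 of 19628 windows of any tumour array. These medians were taken over each array's difference from the mean of the other tumours. The largest in size were 0.5, 0.64, 0.45 and 0.97 in tumour arrays 1 to 4, so array 4 lay just under 1.

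A gene was called changed where limma's Benjamini-Hochberg adjusted p over all 19936 genes was under 0.05. By this rule 6208 genes, or 31.1%, were called between tumour and normal brain: 2703 (13.6%) higher in tumour and 3505 (17.6%) lower. A change of at least 2-fold was seen in 2062 called genes (10.3%), and the median difference over all genes was -0.04. Tumour and normal arrays did not overlap in 2539 genes (12.7%) that were higher in tumour and 3443 (17.3%) that were lower. The housekeeping list rose by 0.082 on average, and centring the arrays on it gave 2171 higher and 4169 lower genes. Its members were not stable themselves. Of 12 measured, 4 were called higher and 4 lower, with differences from -1.14 to 1.25. A change in total RNA per cell cannot be seen on these arrays. Gene lists are described below against these shares. In bulk tissue fewer cells of a type and less RNA per cell cannot be told apart, nor can more cells and more RNA per cell. This holds for every fall and every rise reported here.

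The engineered genes showed little at the level of transcripts. Pdgfb, the ligand carried by the virus, lay at 5.71, 5.69, 6.20 and 5.96 in normal arrays 1 to 4 and at 6.06, 5.94, 5.81 and 6.31 in tumour arrays 1 to 4. The groups overlapped, with a log2 difference of 0.14 ± 0.15 (SE) and a permutation p, exact and two-sided, of 0.4571. Whether the mouse probe set reads the viral sequence is not known, so it does not check the labels. Rbpj, wild type in both groups, lay at 8.11, 8.21, 7.76 and 7.96 in normal brain and at 8.50, 8.41, 8.19 and 8.17 in tumours. The groups overlapped as well (difference 0.31 ± 0.13, exact permutation p = 0.0857), and the mean of its probe sets gave -0.02 (adjusted p = 0.917). It was called higher with array weights (0.34, adjusted p = 0.0474) and without normal array 2 (0.38, adjusted p = 0.0435). Trp53 is not analysed here.

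The receptor Pdgfra separated both groups widely. It lay at 8.59, 8.52, 8.40 and 8.33 in normal arrays 1 to 4 and at 12.04, 12.14, 11.87 and 11.93 in tumour arrays 1 to 4. All 4 tumour arrays were within 0.27 log2 units of each other and none came near normal brain. The rise was 11.6-fold (log2 difference 3.53 ± 0.33, adjusted p = 3.21e-07; exact permutation p = 0.0286, the smallest that 4 against 4 arrays allow). Of the 6 measured PDGF ligands and receptors it alone rose, and the list's median difference was -0.18. Pdgfd, a ligand of PDGFRB, was lower, at -0.90 ± 0.28 (adjusted p = 0.0196). It lost its call without normal array 4 (-0.66, adjusted p = 0.0809) and without tumour array 1 (-0.86, adjusted p = 0.0512).

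**Figure D1:**
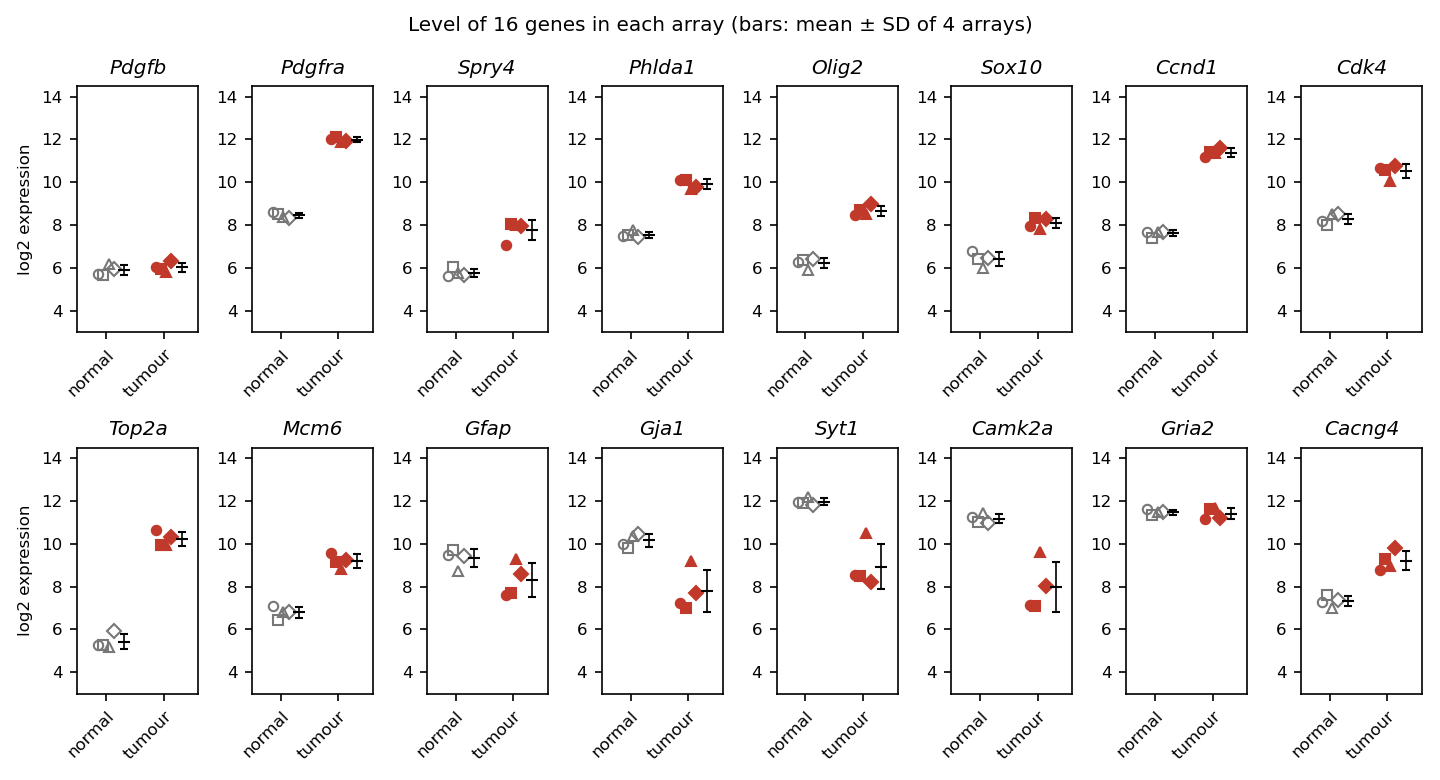
Level of 16 genes (log2 expression, vertical axis) in each of 4 normal brain arrays (open grey symbols) and 4 PDGF+p53-/- tumour arrays (filled red symbols); circles, squares, triangles and diamonds are arrays 1 to 4, and bars give the mean ± SD. Pdgfra, Ccnd1 and Top2a are far higher in every tumour array, Pdgfb and Gria2 overlap, and for Syt1, Camk2a and Gja1 the triangle of tumour array 3 lies above the other tumour arrays.

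Cell division genes rose as a body. All 19 measured genes of the kinetochore and spindle checkpoint, the machinery that attaches chromosomes to microtubules, were called higher, against 13.6% of all genes, with a median difference of 2.74. Of the mitotic entry kinases and cyclins 14 of 15 rose (median 2.29), of the spindle motors and midzone proteins 17 of 18 (median 2.95), and of genes for chromosome condensation 14 of 15 (median 2.33). The largest rise was that of Bub1, a checkpoint kinase at the kinetochore. It lay at 4.20, 3.73, 3.41 and 4.31 in normal brain and at 9.27, 8.63, 8.44 and 8.97 in tumours, a 30.2-fold rise (4.92 ± 0.24, adjusted p = 4.74e-10). Top2a, the topoisomerase that untangles sister chromatids, lay at 5.28, 5.28, 5.18 and 5.94 in normal brain and at 10.63, 9.96, 9.95 and 10.34 in tumours. This was a 27.8-fold rise (4.8 ± 0.19, adjusted p = 6.18e-11), and it was 2.79 when both probe sets were averaged. The proliferation antigen Mki67 rose 16.7-fold, from 5.70, 5.19, 5.35 and 5.88 to 9.80, 9.42, 9.39 and 9.77 (4.07 ± 0.18, adjusted p = 9.69e-11).

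Further division genes, all but Shcbp1 members of these lists, rose with the groups fully apart, as 12.7% of all genes did. At the kinetochore, the scaffold Knl1 rose by 4.13 ± 0.23, the microtubule-binding Nuf2 by 3.96 ± 0.21 and Cenpf by 3.88 ± 0.20. Among spindle proteins, the cytokinesis exchange factor Ect2 rose by 3.88 ± 0.24, the spindle pole protein Aspm by 3.80 ± 0.17 and the kinesins Kif4 and Kif11 by 3.69 ± 0.15 and 3.55 ± 0.22. Prc1, which bundles the central spindle, was tight in both groups, at 4.8 ± 0.05 (mean ± SD, n = 4) in normal brain and 8.17 ± 0.17 in tumours. Among kinases, Pbk rose by 3.83 ± 0.23, the checkpoint kinase Ttk by 3.60 ± 0.21 and Cdk1, the kinase that starts mitosis, by 3.11 ± 0.22, while its partner cyclin Ccna2 rose by 3.44 ± 0.18. The condensin subunit Ncapg rose by 3.60 ± 0.21 and Shcbp1, a midbody protein, by 3.97 ± 0.25. Wee1, the kinase that restrains Cdk1, was not called (0.22 ± 0.14, adjusted p = 0.265), nor was Anln, an actin-binding protein of the cleavage furrow that is also made by oligodendrocytes (0.23 ± 0.28, adjusted p = 0.603). Anln lay at 7.75, 8.39, 6.73 and 8.36 in normal brain and at 8.29, 7.52, 8.31 and 8.02 in tumours, so the groups overlapped, and the difference was -0.13 without normal array 3.

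Genes of S phase rose in every measured case, with smaller medians than the mitotic lists. All 28 measured DNA replication genes were called higher, with a median of 1.69, as were all 8 genes of nucleotide supply (median 1.11) and all 19 of DNA repair and the replication checkpoint (median 1.46). Mcm6, a subunit of the replicative helicase, lay at 7.08, 6.43, 6.82 and 6.82 in normal brain and at 9.59, 9.14, 8.80 and 9.26 in tumours. Its rise was 5.32-fold (2.41 ± 0.15, adjusted p = 4.72e-09). The catalytic subunit of polymerase epsilon, Pole, rose by 2.67 ± 0.18 and the primase Prim1 by 2.39 ± 0.18. Rrm2 and Rrm1, the subunits of ribonucleotide reductase, which makes deoxynucleotides, rose by 3.37 ± 0.31 and 2.49 ± 0.16. The checkpoint kinase Chek1 rose by 2.44 ± 0.16, its adaptor Clspn by 2.34 ± 0.17 and the recombination factor Brca1 by 1.89 ± 0.13. Tumour arrays kept the same order in all 7 of these lists: array 1 had the highest list mean and array 3 the lowest (kinetochore list 8.63, 8.10, 7.91 and 8.38 in arrays 1 to 4; normal brain 5.29 to 5.58). Array 3 is also the tumour array with the most signal of neurons, astrocytes and myelin; how that bears on the order was not tested.

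Promoters of these genes are shown because the mitotic and the replication lists rose together; they share the CCAAT box and differ in how often they hold 2 other short motifs. The 150 bases before the annotated start of 4 genes are printed 5′ to 3′ on the strand of the gene, all 4 on the minus strand, from RefSeq on GRCm38.p6. Capitals mark 3 kinds of motif on either strand. The first is the CCAAT box. The next is TTTGAA, the core of the cell cycle homology region. The last is the E2F motif, searched in the form TTGGCGC, in the form TTCCCGC and in the form TTCGCGC, which can overlap each other.
Top2a, chr11:99024190-99024339: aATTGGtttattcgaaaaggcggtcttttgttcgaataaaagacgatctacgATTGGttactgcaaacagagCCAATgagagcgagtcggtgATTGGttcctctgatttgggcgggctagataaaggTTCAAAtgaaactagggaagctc
Cdk1, chr10:69352913-69353062: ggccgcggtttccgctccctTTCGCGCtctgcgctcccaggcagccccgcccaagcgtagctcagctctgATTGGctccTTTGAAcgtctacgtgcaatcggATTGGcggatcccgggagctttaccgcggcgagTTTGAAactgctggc
Mki67, chr7:135716380-135716529: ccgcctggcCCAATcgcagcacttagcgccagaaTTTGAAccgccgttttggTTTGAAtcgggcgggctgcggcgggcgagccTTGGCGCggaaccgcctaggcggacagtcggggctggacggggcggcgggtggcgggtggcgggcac
Mcm6, chr1:128359706-128359855: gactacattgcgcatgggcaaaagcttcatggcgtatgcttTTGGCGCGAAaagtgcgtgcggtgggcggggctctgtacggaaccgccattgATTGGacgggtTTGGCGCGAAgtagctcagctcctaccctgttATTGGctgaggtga
The Top2a, Cdk1 and Mki67 stretches hold TTTGAA, and the Mcm6 stretch holds none of it but 2 pairs of overlapping E2F forms, each pair giving a run of capitals.

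Over the 15614 measured genes with a RefSeq promoter window, 250 bases before to 50 after the start, TTTGAA occurred on either strand in 15.2%, an E2F form in 11.2%, CCAAT in 38.2% and the cAMP response element TGACGTC in 4.28%. Among spindle motor genes 15 of 16 windows held TTTGAA (93.8%), among chromosome structure genes 9 of 12 (75%), among mitotic kinases 5 of 9 (55.6%) and among kinetochore genes 8 of 16 (50%). DNA replication windows held it in 4 of 23 cases (17.4%) and DNA repair windows in 1 of 15 (6.67%). An E2F form was found in 15 of 23 replication windows (65.2%) and 9 of 15 repair windows (60%), against 3 of 16 spindle motor windows (18.8%) and 1 of 16 kinetochore windows (6.25%). Nucleotide supply genes held it in 2 of 8 (25%) and TTTGAA in 0 of 8. CCAAT was common to these lists, in 77.8% of mitotic kinase, 62.5% of kinetochore, 62.5% of spindle motor, 58.3% of chromosome structure and 65.2% of replication windows. Chromosome structure genes were high in both, with an E2F form in 7 of 12 (58.3%). In all genes called at least 4-fold higher (223, or 1.12%; 174 with a window) TTTGAA stood in 31% and E2F in 27.6%; in those called at least 4-fold lower (305, or 1.53%; 238 with a window) in 9.24% and 12.6%. These are counts of letters, with no test, and they say nothing of whether a factor binds.

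**Figure D2:**
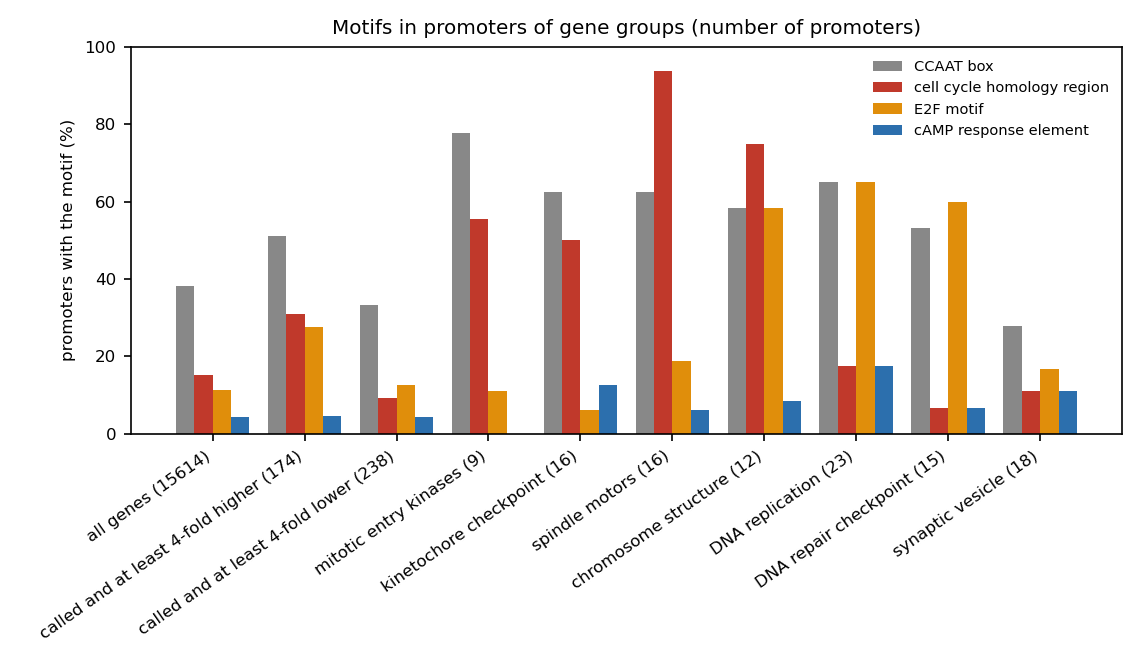
Share of promoter windows (%, vertical axis) that hold each of 4 motifs, for all genes, for genes called at least 4-fold higher or lower, and for 7 gene lists, with the number of windows in brackets. The cell cycle homology region (TTTGAA) reaches 93.8% in spindle motors and the E2F motif 65.2% in DNA replication, against 15.2% and 11.2% in all genes.

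At the G1/S boundary the change was selective: 13 of 20 regulators rose, 0 fell and the median was 1.03. Ccnd1, the cyclin through which growth factors start the cycle, lay at 7.70, 7.41, 7.68 and 7.66 in normal brain and at 11.16, 11.41, 11.35 and 11.62 in tumours. This 13.7-fold rise (3.77 ± 0.19, adjusted p = 4.78e-10) was of the size seen for mitotic genes. Its relative Ccnd2 rose by 2.35 ± 0.25, their kinase partner Cdk4 by 2.23 ± 0.15 and the transcription factor Myc by 3.05 ± 0.25. E2f8, an atypical repressor of the E2F family, rose by 2.38 ± 0.19 and Rbl1, the p107 relative of the retinoblastoma protein, by 2.27 ± 0.13. Inhibitors of cyclin-dependent kinases rose too, in 3 of 6 measured cases, with 0 lower (1 lower without tumour array 4, with array weights and with housekeeping centring). Cdkn2c, an inhibitor of CDK4 and CDK6, lay at 5.92, 5.61, 5.79 and 6.20 in normal brain and at 8.80, 8.66, 8.52 and 8.95 in tumours (2.85 ± 0.18, adjusted p = 4.72e-09). Cdkn2b rose by 1.64 ± 0.23 (adjusted p = 3.09e-05) and Cdkn2a, whose locus encodes p16 and p19Arf, by 0.89 ± 0.18 (adjusted p = 0.000866), with no overlap between groups for any of the 3. Over all genes 12.7% were higher without overlap. Cdkn1b, the p27 inhibitor, was spread over 5.19 to 7.74 in normal brain and was not called (1.09 ± 0.44, adjusted p = 0.0729); without normal array 4 it was (1.53, adjusted p = 0.00859), as without tumour array 4 (1.35, adjusted p = 0.0373).

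Direct p53 targets gave a count at the background. Of 21 listed genes 19 were measured, and the targets Cdkn1a and Bax are not among these 19. Of the 19, 2 rose, 3 fell and 14 were not called. The median was 0.08, with array means of 6.96 to 7.10 in both groups. Without dim genes 12 of the list were left, of which 2 rose and 2 fell. Perp, a membrane protein linked to cell death, fell from 6.16, 6.13, 6.07 and 6.16 to 5.14, 5.10, 5.41 and 5.2 (-0.91 ± 0.13, adjusted p = 2.93e-05). Sesn1, a stress protein, fell by 0.53 ± 0.14 (adjusted p = 0.00784). Phlda3, an AKT inhibitor, rose by 0.75 ± 0.21 (adjusted p = 0.00866) and Trp53inp1 by 0.54 ± 0.13 (adjusted p = 0.00472). Mdm2, the ligase that degrades p53 and is itself induced by it, was at 8.14 ± 0.21 (SD, n = 4) in normal brain and 8.30 ± 0.17 in tumours, a difference of 0.16 with a 95% interval of -0.15 to 0.48 (adjusted p = 0.458).

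Genes induced by ERK signalling, many of which feed back on it, were higher. Of 15 measured, 10 rose, 0 fell and the median was 1.05; the list means were 7.92, 8.28, 7.99 and 7.95 in tumour arrays against 7.04 to 7.30 in normal brain. Phlda1, a pleckstrin-homology protein induced by growth factors, lay at 7.48, 7.56, 7.77 and 7.45 in normal brain and at 10.11, 10.11, 9.71 and 9.76 in tumours (2.36 ± 0.17, adjusted p = 1.76e-08). Spry4, a Sprouty inhibitor of receptor tyrosine kinase signalling, lay at 5.61, 6.05, 5.75 and 5.66 in normal brain and at 7.07, 8.04, 8.01 and 7.97 in tumours (2.0 ± 0.24, adjusted p = 4.74e-06). Tumour array 1 was the lowest of the 4 for it, yet above all normal arrays. Spry1 rose by 1.77 ± 0.24, the transcription factor Etv4 by 1.31 ± 0.23 and the ERK phosphatase Dusp6 by 1.17 ± 0.19. Spred2, a further inhibitor of the pathway, lay at 9.93 ± 0.08 (SD, n = 4) and 9.81 ± 0.11 and was not called (adjusted p = 0.484).

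Oligodendrocyte precursor genes rose in all tumour arrays. Of 13 transcription factors of the lineage 10 rose and 0 fell (median 1.35), and of 20 surface and matrix proteins of these cells 16 rose and 0 fell (median 1.15). Sox6, which keeps precursors immature, lay at 6.90, 6.92, 7.22 and 6.85 in normal brain and at 9.93, 9.85, 9.52 and 9.98 in tumours (7.2-fold; 2.85 ± 0.12, adjusted p = 9.69e-11). Olig2, the factor that specifies the lineage, lay at 6.29, 6.35, 5.89 and 6.43 and at 8.45, 8.72, 8.52 and 8.99 (5.40-fold; 2.43 ± 0.14, adjusted p = 1.31e-09). Olig1 rose by 2.30 ± 0.17, the corepressor Zfp488 by 2.04 ± 0.20 and Sox10, needed in both precursors and oligodendrocytes, by 1.68 ± 0.15. At the surface, Lhfpl3 rose by 3.0 ± 0.21, the proteoglycan Vcan by 2.76 ± 0.22 and Cspg4, the NG2 proteoglycan, by 1.82 ± 0.22. Gpr17, a receptor of committed precursors about to differentiate, was scattered in normal brain (6.80, 5.73, 8.0 and 7.61) and lay at 8.66, 8.80, 8.85 and 9.91 in tumours (2.02 ± 0.36, adjusted p = 0.000296). Gpr37l1 (0.44 ± 0.17, adjusted p = 0.0589) and Bmp4, a marker of the committed step (0.16 ± 0.18, adjusted p = 0.579), were not called. Gpr37l1 was called higher with these groups alone (0.44, adjusted p = 0.0234), without dim genes and with the replicate block (adjusted p = 0.0429 in both), and without tumour array 1 (0.51, adjusted p = 0.0496).

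Myelin genes of mature oligodendrocytes fell in part. Of 18 measured, 8 fell and 1 rose (median -0.76; 17.6% of all genes were lower). Mog, a myelin surface protein, lay at 8.27, 8.53, 7.80 and 9.36 in normal brain and at 5.91, 5.55, 7.92 and 6.88 in tumours (-1.93 ± 0.41, adjusted p = 0.00126). The cytoskeletal protein Ermn lay at 9.69, 9.81, 8.19 and 10.49 and at 6.0, 5.73, 9.22 and 7.01 (-2.55 ± 0.59, adjusted p = 0.0026). In both cases tumour array 3 lay inside the range of normal brain and the other 3 tumour arrays lay below it. Aspa, an enzyme of acetylaspartate breakdown, fell by 2.58 ± 0.56 (adjusted p = 0.00155) and the myelin protein Mobp fell by 2.45 ± 0.56 (adjusted p = 0.00244), with the same overlap. Without tumour array 3 the list held 10 lower genes and a median of -1.01, and without normal array 4, the highest in myelin, 7 lower and -0.43. The list's only called rise was that of Gjc3, a glial connexin, which lay at 9.01, 9.05, 8.93 and 10.04 in normal brain and at 10.80, 11.31, 10.34 and 9.90 in tumours and rose by 1.33 ± 0.35 (adjusted p = 0.00656). Ugt8a, the enzyme that makes the myelin lipid galactosylceramide, was not called (0.80 ± 0.40, adjusted p = 0.149) but rose without normal array 4 (1.28, adjusted p = 0.00614).

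**Figure D3:**
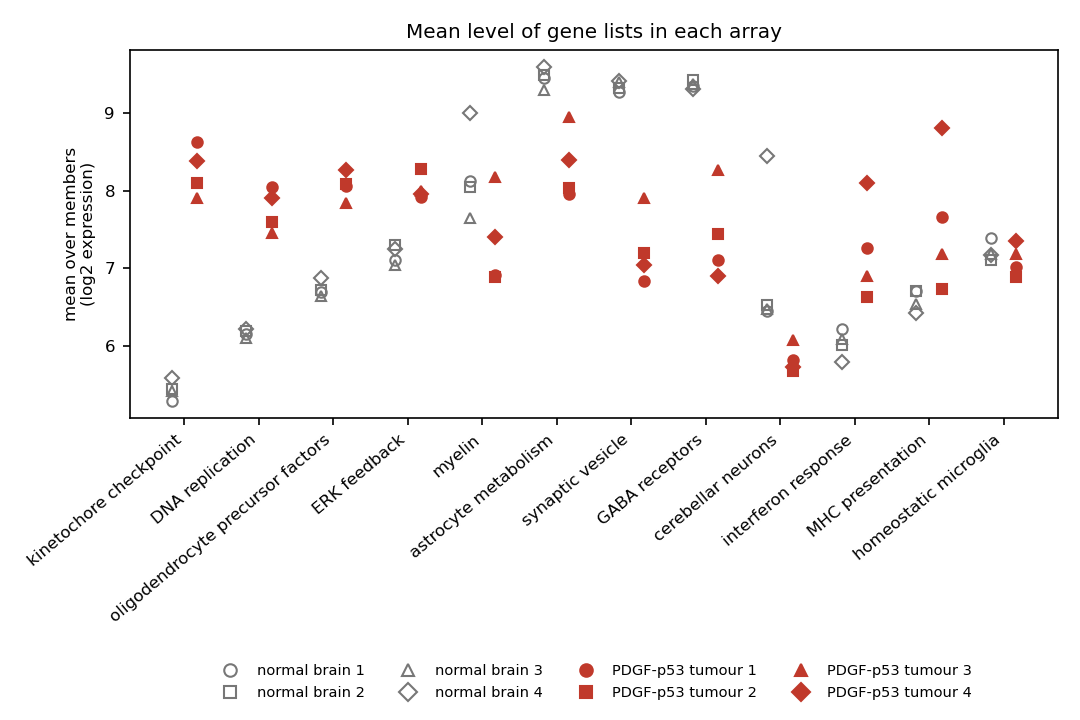
Mean log2 level over the members of 12 gene lists (vertical axis) in each of 4 normal brain arrays (open grey) and 4 PDGF+p53-/- tumour arrays (filled red), with 1 symbol shape for each array number. Tumour array 3 (triangle) lies highest of the tumours in myelin (8.17), astrocyte metabolism (8.95), synaptic vesicle (7.90) and GABA receptor genes (8.26), normal array 4 (open diamond) stands at 8.44 in cerebellar neuron genes, and tumour array 4 (diamond) is highest in interferon response and MHC genes (8.10 and 8.81).

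Markers of neural stem cells and radial glia rose in a few cases. Of 17 measured, 5 rose and 2 fell, with a median of -0.17. Over all genes 13.6% were higher and 17.6% lower, so the falls did not exceed that share. Tnc, a matrix protein of radial glia, rose by 2.53 ± 0.43, and the intermediate filament Nes lay at 4.48, 5.63, 4.83 and 4.99 in normal brain and at 7.43, 8.12, 7.05 and 7.30 in tumours (2.50 ± 0.24, adjusted p = 4.70e-07). The lipid-binding protein Fabp7 rose by 2.41 ± 0.17 and the filament Vim by 1.91 ± 0.20. Slc1a3, the GLAST glutamate transporter of stem cells and astrocytes, was not called (-0.46 ± 0.22, adjusted p = 0.133); without tumour array 3, at 10.42, it was (-0.71, adjusted p = 0.0072), and without that array 4 of the 17 list members were lower. The lower count was 0 without tumour array 2, and 1 without tumour array 4 or normal array 4. Notch pathway genes, which hold stem cells undivided or direct them to glia, gave 8 higher and 4 lower of 23 (median 0.13). The lower count was near the 17.6% of all genes. The ligand Jag1 lay at 5.57, 5.47, 5.50 and 5.48 in normal brain and at 6.76, 7.41, 7.18 and 6.54 in tumours (1.47 ± 0.17, adjusted p = 3.05e-06), and the receptor Notch1 rose by 1.01 ± 0.15. Hes1, a target gene, rose by 0.69 ± 0.18 (adjusted p = 0.0076, and 0.057 without normal array 4 and tumour array 3) with overlapping arrays, while Hey1, another, fell by 0.66 ± 0.12 (adjusted p = 0.000267). Hey2, of the same family as Hey1, was called higher. The count of higher Notch genes was 5 without tumour array 1 or 4 or normal array 3 or 4, and that of lower ones 2 without normal array 1 or 3.

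Genes of young neurons mostly fell, with 11 of 16 lower and 2 higher (median -0.94). The exceptions were Dcx, a microtubule protein of migrating neuroblasts, which lay at 7.58, 7.39, 8.21 and 7.78 in normal brain and at 8.84, 8.69, 8.84 and 8.62 in tumours (1.01 ± 0.20, adjusted p = 0.000625), and the transcription factor Sox11, which rose by 1.21 ± 0.21 (adjusted p = 0.000202). Sox11 is also a member of the precursor factor list and is counted there as well. Stmn2, a tubulin regulator of growing axons, fell 12.2-fold (-3.61 ± 0.54, adjusted p = 5.31e-05), and Neurod6, a factor of cortical excitatory neurons, fell by 3.06 ± 0.34 (adjusted p = 2.46e-06).

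Genes of mature neurons fell in most lists. Of 20 synaptic vesicle genes 19 fell (median -2.07), of 16 genes of postsynaptic calcium signalling 15 (median -1.38), of 17 sodium and calcium channel genes 15 (median -1.68), of 18 potassium channel genes 16 (median -1.48) and of 14 interneuron markers and peptides 13 (median -2.45), each against 17.6% of all genes. Calb1, a calcium buffer, had the largest fall among called genes. It lay at 9.55, 9.54, 9.47 and 9.53 in normal brain, hardly varying, and at 4.99, 5.33, 6.90 and 4.62 in tumours (16.7-fold lower; -4.06 ± 0.41, adjusted p = 7.56e-07). Syt1, the calcium sensor of vesicle release, lay at 11.97, 11.90, 12.17 and 11.82 in normal brain and at 8.53, 8.48, 10.49 and 8.22 in tumours (8.20-fold lower; -3.04 ± 0.50, adjusted p = 0.000134). The kinase Camk2a lay at 11.25, 11.02, 11.42 and 10.97 and at 7.13, 7.09, 9.62 and 8.04 (-3.20 ± 0.47, adjusted p = 4.54e-05). For all 3 genes the groups did not overlap, and tumour array 3 was the highest tumour. Over all genes 17.3% were lower without overlap.

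Further large falls covered vesicles, adhesion and signalling. The vesicle GTPase Rab3c fell by 3.66 ± 0.41, the vesicle protein Sv2b fell by 3.48 ± 0.46 and the glutamate carrier Slc17a6 fell by 3.21 ± 0.25. Prmt8, a brain-specific arginine methyltransferase, fell by 3.73 ± 0.37, the receptor Epha6 fell by 3.61 ± 0.39, the cadherin Cdh9 fell by 3.58 ± 0.36 and the kinase anchor Sphkap fell by 3.53 ± 0.29. The calcium sensor Hpca fell by 3.11 ± 0.34 and the potassium channel Kcnh7 fell by 3.04 ± 0.40. The peptides Sst and Npy were at -3.33 ± 0.46 and -2.99 ± 0.41, while Tac1 and Penk, striatal peptides that were spread in normal brain (7.95 to 10.43 and 11.02 to 12.58), were lower by limma, at -3.14 ± 0.81 and -2.74 ± 0.66, with overlap. Kcnd2, a fast potassium channel, lay at 9.79 ± 0.33 (SD, n = 4) and 9.94 ± 0.06 and was not called (0.15 ± 0.21, adjusted p = 0.672). Sv2c, a vesicle protein with 7.25 in normal array 3 and 8.51 to 9.38 in the others, was also not called (0.61 ± 0.50, adjusted p = 0.411). Without tumour array 3 the vesicle list held 18 lower genes and its median was -2.27; without normal array 4 as well it held 18 and -2.29.

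Neurotransmitter receptors were less uniform. Of 13 genes of GABA receptors and synthesis 10 fell (median -1.97), among them Gad2, which makes GABA (-3.24 ± 0.48, adjusted p = 4.63e-05), and the receptor subunit Gabra4 (-2.99 ± 0.33, adjusted p = 2.05e-06). Of 15 glutamate receptor genes 8 fell, 2 rose and 5 were not called (median -0.68). The NMDA receptor subunits Grin2b and Grin2a fell, at -3.30 ± 0.38 and -3.19 ± 0.32, and the AMPA receptor subunit Gria1 fell by 2.93 ± 0.38. Gria2, the AMPA subunit that blocks calcium entry, instead lay at 11.61, 11.34, 11.47 and 11.48 in normal brain and at 11.18, 11.61, 11.65 and 11.20 in tumours. The difference was -0.06 with a 95% interval of -0.48 to 0.35 (adjusted p = 0.849). Gria4 was higher by 0.64 ± 0.21 (adjusted p = 0.0297) with overlap. That call was lost without normal array 1, 2 or 3 (0.59, 0.57 and 0.64; adjusted p = 0.0749, 0.0849 and 0.0582) and without tumour array 1, 2 or 3 (0.65, 0.60 and 0.51; adjusted p = 0.0544, 0.0696 and 0.0947). The kainate receptor subunit Grik3 was narrow in normal brain, at 7.61, 7.67, 7.63 and 7.67, and rose to 8.47, 8.77, 8.30 and 8.58 (0.89 ± 0.14, adjusted p = 7.62e-05). The auxiliary subunits of AMPA receptors split in the same way. Cacng2 and Cacng3 fell, at -3.37 ± 0.29 and -3.46 ± 0.54, whereas Cacng4 lay at 7.30, 7.59, 7.02 and 7.38 in normal brain and at 8.78, 9.31, 8.95 and 9.80 in tumours (3.69-fold higher; 1.88 ± 0.22, adjusted p = 3.87e-06).

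**Figure D4:**
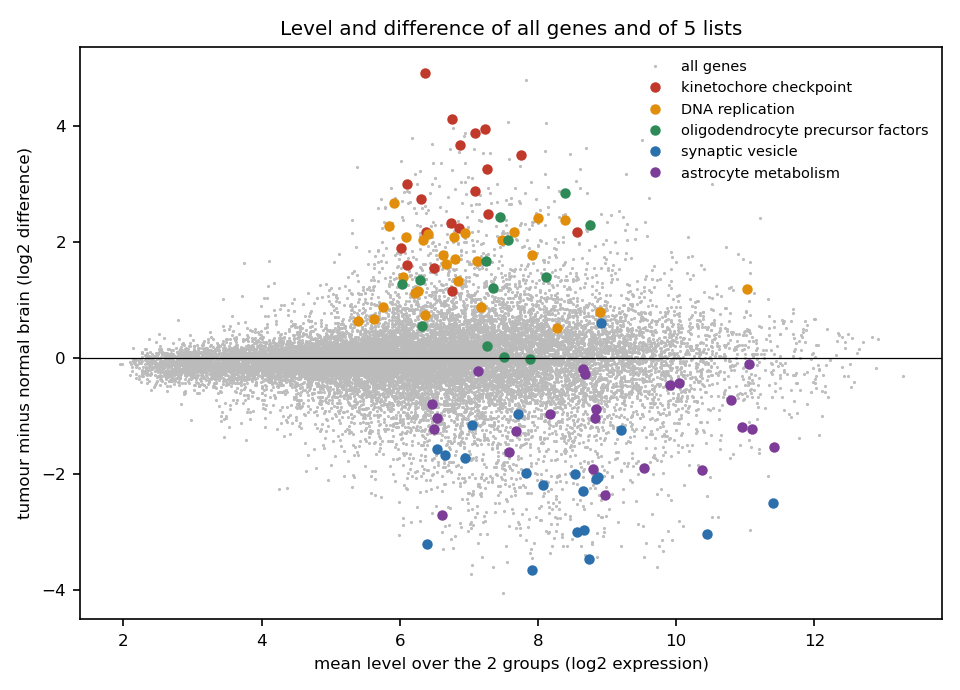
Difference between tumour and normal brain (log2, vertical axis) against the mean level over both groups (log2, horizontal axis) for 19936 genes (grey) and the members of 5 lists (colours). Every kinetochore and DNA replication gene lies above 0, with Bub1 at 4.92, and 19 of 20 synaptic vesicle genes were called lower, with Rab3c at -3.66.

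Markers of brain regions differed among the normal arrays. In 13 measured genes of cerebellar neurons normal array 4 had a list mean of 8.44 against 6.45, 6.52 and 6.47 in arrays 1 to 3 and 5.67 to 6.08 in tumours. Gabra6, a receptor subunit of cerebellar granule cells, lay at 3.85, 3.80, 3.95 and 8.69 in normal brain and at 3.71 to 3.79 in tumours, so a single normal array was high; its difference of -1.32 was -0.11 without normal array 4. For Cbln3, another granule cell gene, the same step took -1.13, which was not called, to -0.26; without normal array 1 it was called (-1.5, adjusted p = 0.0483). Pcp2, of Purkinje cells, was at -0.63 ± 0.19 (adjusted p = 0.0192) and at -0.35 without that array; its call was lost with these groups alone (adjusted p = 0.0582). The whole list had 5 lower and 0 higher genes, and 5 lower and 1 higher without normal array 4, while its median moved from -0.93 to -0.26. Of 12 forebrain neuron genes 10 fell (median -1.49), also without normal array 4 (10, median -1.61). The 16 genes of hindbrain and midbrain had a median of -0.04, with 5 lower and 1 higher. The higher call was lost without normal array 1 or 2 and without tumour array 1 or 4. It was also lost with these groups alone and with the trended robust fit. The list was dim, with array means of 5.03 to 5.49 in normal brain and 4.89 to 5.08 in tumours. Only 1 of the 16 genes was left without dim genes, and it was not called.

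Among astrocyte genes 15 of 23 fell and 0 rose (median -1.04). Gjb6 and Gja1, the connexins that couple astrocytes, lay at 8.23, 7.84, 7.78 and 8.0 (Gjb6) in normal brain and at 4.97, 4.78, 6.10 and 5.17 in tumours, a difference of -2.71 ± 0.27 (adjusted p = 6.31e-07), and Gja1 fell by 2.37 ± 0.38 (adjusted p = 9.94e-05). The glutamate transporter Slc1a2 fell by 1.94 ± 0.32 and Mlc1, a protein of astrocyte endfeet, fell by 1.91 ± 0.33. Gfap, the filament of astrocytes, lay at 9.47, 9.71, 8.75 and 9.42 in normal brain and at 7.59, 7.72, 9.28 and 8.59 in tumours, and its difference of -1.04 ± 0.35 (adjusted p = 0.0316) was lost without normal array 1, 2 or 4 (-1.0, -0.92 and -1.01; adjusted p = 0.0701, 0.0915 and 0.0661) and without tumour array 1 or 2 (-0.81 and -0.85; adjusted p = 0.119 and 0.105). Tumour array 3, with a list mean of 8.95, lay nearest to normal brain (9.30 to 9.59), and tumours 1, 2 and 4 lay at 7.95, 8.03 and 8.39.

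Energy metabolism shifted in part. Of 21 respiratory chain genes 14 fell and 0 rose, with a median of -0.54, and all 21 differences were below 0. The cytochrome oxidase subunit Cox4i1 lay at 11.71, 12.05, 12.19 and 12.11 in normal brain and at 10.97, 11.18, 11.25 and 11.05 in tumours (-0.90 ± 0.15, adjusted p = 0.000153), and Cox8a fell by 0.93 ± 0.18. Of 19 genes of glycolysis and the hypoxia response 6 fell and 3 rose (median -0.30). Eno2, the neuronal enolase, fell by 2.29 ± 0.23 (adjusted p = 9.91e-07). Adm, a peptide induced by low oxygen, lay at 5.36 to 5.84 in normal brain and at 6.46, 8.40, 6.44 and 8.38 in tumours (1.87 ± 0.45, adjusted p = 0.00386), so tumour arrays 2 and 4 were high and 1 and 3 less so. The count of higher genes in this list was 1 without tumour array 4, normal array 1 or normal array 4, and 5 without tumour array 3. Cholesterol synthesis had 1 lower gene of 16 and a median of 0.04; the lower count lay between 0 and 4 and the higher count between 0 and 2 over the settings tried.

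Chromatin and RNA-binding proteins changed in both directions. Of 20 Polycomb, DNA methylation and histone genes 12 rose and 3 fell (median 0.60). Ezh2, the histone methyltransferase of dividing cells, lay at 7.88, 8.21, 7.63 and 8.10 in normal brain and at 10.33, 9.80, 9.62 and 9.92 in tumours (1.96 ± 0.15, adjusted p = 5.05e-08). Ezh1, its relative in resting cells, lay at 7.6, 7.70, 7.62 and 7.70 and at 6.51, 6.67, 7.05 and 6.96, a difference of -0.86 ± 0.14 (adjusted p = 0.000104). Hmga2, an architectural protein of embryonic cells, rose by 2.68 ± 0.42, the remodeller Hells by 2.27 ± 0.19 and Uhrf1, which guides maintenance methylation, by 2.01 ± 0.20. Of 21 splicing and RNA-binding genes 13 rose and 5 fell (median 0.41). Ptbp1, a splicing repressor of dividing precursors, rose by 1.16 ± 0.18. The neuronal regulators went both ways. Among them Nova1 rose by 1.65 ± 0.18, the largest rise of the list, while Rbfox3, Rbfox1 and Celf4 fell, at -2.23 ± 0.26, -2.25 ± 0.26 and -2.78 ± 0.26. Rbfox3, whose protein is the neuronal marker NeuN, lay at 8.77 to 8.94 in normal brain and at 6.27, 6.32, 7.57 and 6.28 in tumours. With housekeeping centring 9 of the 21 rose and 5 fell.

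Vessel genes gave counts near or below the shares of all genes, 13.6% higher and 17.6% lower. Of 22 endothelial genes 4 fell, 3 rose and 15 were not called (median 0.06). Slc2a1, Mfsd2a and Emcn were among the uncalled members. Slco1a4, an organic anion carrier of the blood-brain barrier, lay at 8.26, 7.90, 8.0 and 7.67 in normal brain and at 5.30, 5.80, 7.08 and 5.38 in tumours (-2.07 ± 0.31, adjusted p = 5.29e-05). Abcb1a, the P-glycoprotein efflux pump, fell from 8.51, 8.09, 8.23 and 8.17 to 6.93, 6.70, 7.13 and 6.69 (-1.39 ± 0.15, adjusted p = 1.24e-06), and the thyroid hormone carrier Slco1c1 fell by 1.35 ± 0.28. Angpt2, a destabilising ligand made by sprouting vessels, rose by 1.97 ± 0.40 (adjusted p = 0.000829). Esm1, a tip cell protein, lay at 7.51, 8.11, 5.25 and 8.6 in tumours and at 5.0 to 5.94 in normal brain, so tumour array 3 was not raised. Its rise of 2.02 ± 0.63 (adjusted p = 0.0199) was lost without normal array 3 (1.90, adjusted p = 0.0531) and without tumour array 2 or 4 (1.77 and 1.61; adjusted p = 0.064 and 0.0765). Of 14 mural cell genes 1 rose and 2 fell, among them Rgs5, a pericyte regulator of G proteins (-1.44 ± 0.39, adjusted p = 0.00842). The riser was Cspg4, shared with the precursor list; without normal array 3 or 4 or tumour array 2 the lower count was 1, and without tumour array 4 the higher count was 2.

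Matrix genes rose in few but large cases. Of 24 collagens and matrix proteins 8 rose and 0 fell, with a median of 0.21; 2 were called lower without tumour array 1, with housekeeping centring and without dim genes, and 1 without normal array 1 or 3. Postn, a matrix protein that binds integrins, lay at 5.34, 5.44, 5.76 and 5.60 in normal brain and at 10.12, 9.90, 8.49 and 7.77 in tumours (11.6-fold; 3.54 ± 0.47, adjusted p = 1.43e-05). The fibril collagen Col11a1 rose by 2.67 ± 0.25 and the laminin Lama4 by 2.65 ± 0.21. Beyond the lists, Moxd1, a hydroxylase-like protein of neural crest, rose 16.6-fold, from 5.89, 5.63, 6.29 and 6.53 to 10.31, 10.54, 9.64 and 10.06 (4.06 ± 0.47, adjusted p = 3.34e-06). The guidance ligand Sema3d rose by 3.62 ± 0.40 and the mesenchymal homeobox gene Prrx1 by 3.57 ± 0.34. Of 21 genes that mark mesenchymal glioma 10 rose and 0 fell (median 0.57), among them the lectin Lgals1 (1.36 ± 0.24) and the transcription factor Stat3 (1.35 ± 0.20). That list's mean was 7.42, 7.38, 6.72 and 7.50 in tumours and 6.51 to 6.89 in normal brain, so tumour array 3 lay within normal brain. Without it the list held 13 higher genes and a median of 0.91, and without tumour array 1, 2 or 4 or normal array 1 it held 6.

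Immune genes gave mixed counts. Of 15 homeostatic microglia genes 1 rose and 1 fell (median -0.17): the receptor Siglech fell by 1.05 ± 0.21 (adjusted p = 0.000844) and the transcription factor Sall1 rose by 0.68 ± 0.16 (adjusted p = 0.00318). The defining markers P2ry12, Tmem119 and Cx3cr1 were at -0.56 ± 0.25, -0.18 ± 0.15 and -0.17 ± 0.23 and were not called; P2ry12 was called lower without tumour array 3 (-0.81, adjusted p = 0.00853). Of 21 genes of recruited macrophages 8 rose and 1 fell (median 0.94). The higher count lay between 6 (without tumour array 1 or 4) and 11 (without tumour array 3). The gene that fell was Mrc1, a mannose receptor of resident macrophages (-0.68, adjusted p = 0.045), and this call was lost with a sex term and without normal array 1, 3 or 4, tumour array 1, 2 or 3, or most single arrays of the other tumour groups. Ccl2, a monocyte attractant, lay at 5.64, 5.93, 6.29 and 6.02 in normal brain and at 7.85, 7.69, 7.29 and 8.42 in tumours (1.84 ± 0.27, adjusted p = 3.65e-05). Lyz2, a lysozyme of myeloid cells, lay at 7.83 to 8.49 in normal brain and at 10.77, 9.26, 8.09 and 11.19 in tumours (1.75 ± 0.48, adjusted p = 0.00891), with tumour array 3 in the normal range. Of 15 lymphocyte genes 0 were called by limma, and 3 were called higher without tumour array 2; their array means were 4.81 to 5.73 in tumours and 5.01 to 5.15 in normal brain.

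Interferon response genes rose in 8 of 18 cases (median 1.13) and genes of antigen presentation by MHC proteins in 2 of 13 (median 0.68, a share near the background of 13.6%). Their levels followed single tumours: the MHC list had means of 7.66, 6.73, 7.18 and 8.81 in tumour arrays 1 to 4 and 6.42 to 6.70 in normal brain. Psmb9, an immunoproteasome subunit, lay at 9.34, 7.06, 8.06 and 11.13 in tumours and at 6.83 to 7.19 in normal brain, and was not called (1.82 ± 0.79, adjusted p = 0.0929) except without tumour array 2 (2.43, adjusted p = 0.0282). The chemokine Cxcl10 lay at 8.71, 5.93, 7.55 and 10.76 and the guanylate-binding protein Gbp4 at 7.85, 5.2, 7.26 and 10.85, against 5.31 to 6.72 and 5.38 to 6.25 in normal brain. For these genes tumour array 4 was highest, array 1 next and array 2 within or near normal brain. Without tumour array 4 the interferon list held 3 higher genes, and without normal array 2, 3 or 4 it held 5, while a fit on these groups only gave 14. Without tumour array 4, or normal array 3 or 4, or tumour array 1, 0 MHC genes were called, and without tumour array 2 there were 6; with these groups alone there were 4, and with a sex term or the trended robust fit 0. Tumour array 1 alone held transcripts of plasma cells: the antibody joining chain Jchain lay at 7.53 there and at 2.98 to 3.62 in the other tumours, and an immunoglobulin kappa variable gene was high in that array as well, at 8.28.

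Against the tumours that also lack Rbpj, the PDGF+p53-/- tumours differed in 4 of 19936 genes (0.0201%), 1 (0.00502%) higher and 3 (0.015%) lower. The deleted gene, Rbpj, was not among them, at 0.59 ± 0.13 (limma adjusted p = 0.269). Against the p53-/-RBPjk-/- tumours Rbpj was called higher, at 0.53 ± 0.13 (limma adjusted p = 0.0191). Clic5, a chloride channel family protein linked to the actin cortex, lay at 8.25, 9.27, 9.24 and 8.86 in PDGF+p53-/- tumours, at 6.66, 7.26, 6.87 and 6.52 in PDGF+p53-/-RBPjk-/- tumours and at 5.79 to 5.96 in normal brain. The direct difference was 2.07 ± 0.20 (adjusted p = 0.000145), with no overlap among the 3 groups. Hspa1l, of the HSP70 chaperone family, was lower in PDGF+p53-/- tumours, at -1.01 ± 0.15 (adjusted p = 0.0305). The other lower calls were the small nucleolar RNAs Snora73b (-1.36 ± 0.17, adjusted p = 0.00305) and Snora33 (-1.01 ± 0.16, adjusted p = 0.0309). These lower calls were fragile: 1 in place of 3 was made with housekeeping centring, with the replicate block, without normal array 2, without PDGF+p53-/- array 2 or 3, without any single PDGF+p53-/-RBPjk-/- array and without p53-/-RBPjk-/- array 3. No member of the lists above was called in this comparison. A p above the threshold does not show that the tumours were alike: the median SE of a difference was 0.15.

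Against the p53-/-RBPjk-/- tumours, made without the virus, 1105 genes were called (5.54%), 720 (3.61%) higher and 385 (1.93%) lower in PDGF+p53-/- tumours. All 4 p53-/-RBPjk-/- arrays showed the female pattern, so sex and tumour type cannot be fully told apart, and a fit with a sex term called 183 genes; a fit with these groups only called 289. Centring on housekeeping genes turned the split to 440 higher and 1166 lower, so the directions in this comparison depend on the scaling. Ccnd2 was higher by 2.27 ± 0.25 (adjusted p = 0.000185), Spry4 by 1.36 ± 0.24 (adjusted p = 0.00372) and Phlda1 by 1.10 ± 0.17 (adjusted p = 0.00147), while Pdgfra was not called (-0.34 ± 0.33, adjusted p = 0.66). The integrin Itga8 was higher by 3.59 ± 0.43, Clic5 by 3.42 ± 0.20 and the G protein subunit Gng3 by 2.81 ± 0.35. The meiosis gene Sycp1 was lower, at -3.17 ± 0.38, as was the transcription factor Foxd1, at -2.16 ± 0.32. Of the precursor surface list 8 of 20 were higher and 0 lower, of the sodium and calcium channels 7 of 17 higher, of cholesterol synthesis 9 of 16 higher, and of the spindle motors 5 of 18 lower. The comparison rested in part on tumour arrays 2 and 3 and on array 3 of the other group, without which it called 553, 702 and 727 genes.

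**Figure D5:**
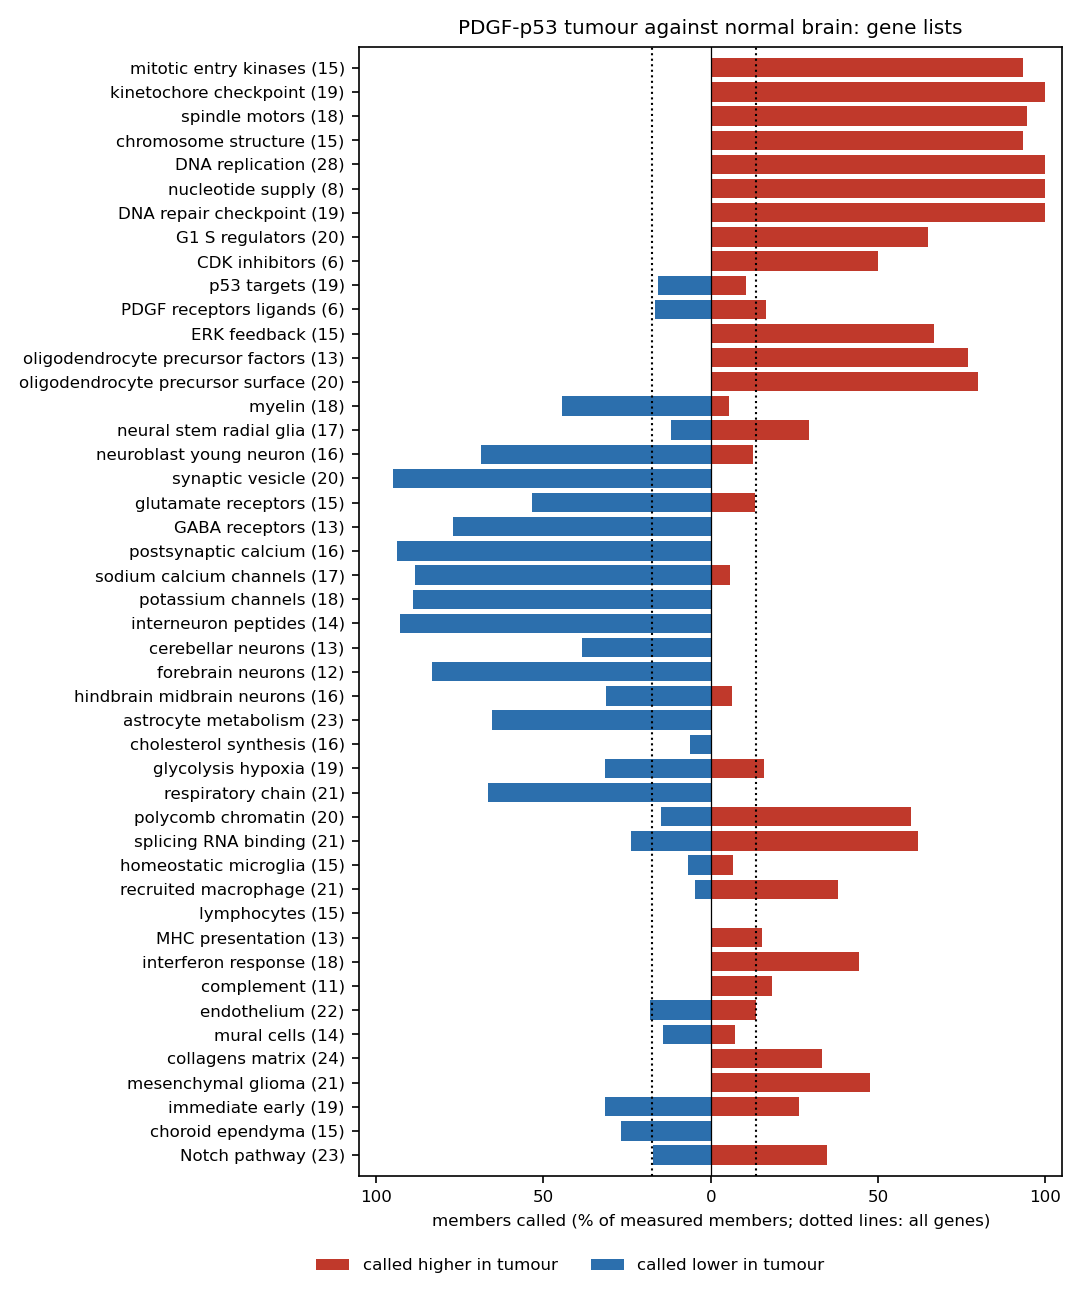
Share of the measured members of each gene list (number in brackets) called higher (red, to the right) or lower (blue, to the left) in PDGF+p53-/- tumours against normal brain (%, horizontal axis); dotted lines give the shares of all genes, 13.6% higher and 17.6% lower. Kinetochore, DNA replication, nucleotide supply and DNA repair lists are called higher in every member, synaptic vesicle, postsynaptic, channel and interneuron lists lie mostly lower, and p53 targets, microglia and lymphocyte lists lie at or inside the dotted lines.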

How the data were processed

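Total RNA was hybridised to 16 Affymetrix arrays. The authors deposited log2 expression values, made with RMA in oligo per the submitters' processing notes; no version is stated there. Of 35556 probe sets, 21789 had 1 gene symbol in the platform annotation, 1621 several and 12146 none. Each of 19936 genes was read from its probe set of highest mean (1001 genes had several).

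Groups came from the titles. limma 3.58.1 (R 4.3.3; lmFit and eBayes) was fitted to all 16 arrays, with Benjamini-Hochberg adjustment over all genes and a threshold of 0.05. Single values were tested with an exact two-sided permutation test over all splits of the arrays. The 95% intervals used t quantiles from scipy 1.17.1. Differences are given ± SE, levels ± SD. On simulated data for tumour against normal brain, with 19936 genes, 49 of 50 genes lowered by 2 log2 units and 39 of 50 lowered by 1 were called, 44 of 50 raised by 1 and 49 of 50 raised by 2, and 12 of 19736 unchanged genes.

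The members and gene lists were chosen with earlier results of these data known. Genes were named by rule: the 15 largest rises and falls, the engineered genes, up to 5 called members per direction and 3 uncalled members of each list, the 10 genes most spread among tumours, the 10 smallest adjusted p-values and up to 10 genes per direction in each direct comparison. Cdk4, Penk, Gabra6, Gfap, Prrx1, P2ry12, Tmem119, Cx3cr1, Snora33 and Snora73b fall outside it and were chosen after their values were seen. Promoters are the first RefSeq window listed per gene. Alternatives were the groups of each comparison alone, a trended robust fit, housekeeping centring (12 genes), the mean of probe sets, removal of genes with mean under 6, a replicate block, array weights, a sex term and leaving out each array.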

Additional observations from a re-analysis of the deposited data

Results flagged for a closer look

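In 450 groups of 4 arrays, 39 had an array far from the other 3, past Dixon's critical value; chance flags about 1 in 20 groups. Tumour array 3 lay far above the other tumours in 7 neuronal genes: Syt1 at 10.49, Grin2b at 7.65, Grin2a at 7.25, Cdh9 at 6.90, Sphkap at 6.63, Rbfox3 at 7.57 and Celf4 at 7.38. It was also high in Aspa, at 7.72, and low in the list means of G1/S regulators (7.61) and mesenchymal genes (6.72). Tumour array 1 stood apart in Jchain at 7.53, an immunoglobulin kappa variable gene at 8.28, Prim1 at 10.13 and Spry4 at 7.07. Tumour array 2 stood apart in Spry1 at 8.15, Hey1 at 7.89 and the respiratory chain mean at 10.10. Tumour array 4 stood apart in Pdgfd at 5.0, Sesn1 at 8.11, Gpr17 at 9.91, Npy at 7.30 and Hspa1l at 5.13.

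Normal array 4 stood apart in the cerebellar genes Gabra6 at 8.69, Cbln3 at 9.09 and Pcp2 at 7.55 and in the cerebellar list mean at 8.44. It was also high in Gjc3 at 10.04, Aspa at 8.95, Top2a at 5.94 and Kif11 at 5.46. Normal array 2 stood apart in Ccnd1 at 7.41, Gabra4 at 10.31, Hpca at 10.75 and Col11a1 at 6.64. Normal array 3 stood apart in Hmga2 at 7.16 and in the means of precursor surface genes (7.80) and glutamate receptors (9.02). Normal array 1 stood apart in Eno2 at 9.61 and in the receptor kinase Kit at 6.58.

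Genes whose level differed directly between tumour types were Clic5 (2.07 against PDGF+p53-/-RBPjk-/- and 3.42 against p53-/-RBPjk-/- tumours) and Hspa1l (-1.01 and -0.86). Against p53-/-RBPjk-/- tumours Itga8 differed by 3.59, Gng3 by 2.81, Eya1 by 2.81, Sycp1 by -3.17, Gpnmb by -2.25, Foxd1 by -2.16 and Kit by -1.98. These were differences in log2 level called by limma.

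Among probe sets that the gene comparison did not use, 294 of 1621 with several symbols were called higher in tumours and 155 lower. Of 12146 with no symbol, 770 were higher and 745 lower, so both directions were nearly equal. These calls came from a separate fit with adjustment over all 35556 probe sets. Among genes, with adjustment over 19936, 13.6% were higher and 17.6% lower.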

How the results depend on the processing

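The count for tumour against normal brain (6208) lay between 5262 and 6287 when single arrays were left out, at 5944 with these groups alone and at 5773 without normal array 4 and tumour array 3, a setting chosen after seeing the data. Leaving out single arrays gave ranges of 19 to 19 for the kinetochore list, 27 to 28 for DNA replication, 8 to 10 for ERK feedback, 10 to 10 for precursor factors, 7 to 10 for myelin, 18 to 19 for synaptic vesicles, 13 to 17 for astrocytes and 13 to 17 for the respiratory chain. Against PDGF+p53-/-RBPjk-/- tumours the count of 4 was 2 with housekeeping centring, 2 with the replicate block and 2 to 7 with single arrays left out. Against p53-/-RBPjk-/- tumours the count of 1105 was 289 with these groups alone, 183 with a sex term and 553 to 1323 with single arrays left out. Same-numbered normal and tumour arrays deviated together at r of 0.12, 0.18, 0.03 and -0.08, and differently numbered ones at -0.19 to 0.11. Whether equal numbers pair the arrays cannot be told from so few weak correlations. With the replicate block 6232 genes were called. Of 151 called genes among 179 considered for naming, 132 kept their call in every setting, 19 lost it in at least 1 and 0 changed direction. Values that were not called changed sign for Rbpj (-0.02 with the mean of probe sets), Anln (-0.13 to 0.42 with single arrays left out), Gria2 (-0.15 to 0.01) and Jchain (-0.79 to 0.73); the cause was not tested. The number of arrays limits the precision.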
